A study of Mus musculus with 12 samples.

Results

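The genes described here are 10 that mark neutrophils in the mouse, 7 of them receptors (*Csf3r*, *Fpr1*, *Fpr2*, *Trem1*, *Trem3*, *Clec4d* and *Clec4e*) and 3 coding for a surface antigen, a secreted protein or a granule protein (*Ly6g*, *Retnlg* and *Ngp*). They were picked by name, as rows of a count table of 21247 genes, with earlier results of these data known. The table held 8 of the 10, and 7 of these, all receptors, reached the 10 counts summed over the libraries that a test required. *Retnlg* and *Ly6g* were not analysed here. *Ngp*, neutrophilic granule protein, was in the table with 0, 0, 1 and 0 counts in the 4 ft/ft libraries and 0, 2, 2 and 1 counts in the 4 ft/ftMyD88-/- libraries, so it was not tested and a difference was not detectable at this depth. The values therefore cover the receptors and do not cover the granule genes named beside them.

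The libraries are bulk RNA-seq of periocular skin from 6-week-old mice on a BALB/c background, with 4 mice described per group. Both groups are homozygous for ft, a spontaneous loss-of-function mutation of filaggrin, so filaggrin deficiency is shared by the controls. The ft/ftMyD88-/- mice also lack *Myd88*, which couples toll-like receptors and receptors of the IL-1 family to their signalling, in the germline and so in every cell type. The question put by the design is what the skin of filaggrin-deficient mice does without MyD88. WT libraries were not analysed here.

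The ft/ft libraries held 18941705 to 29255129 counts each and the ft/ftMyD88-/- libraries 15802957 to 27037997. Levels are in CPM, counts scaled to a common library size after edgeR's TMM normalization, and a library with 0 counts of a gene could hold up to 3 counts' worth, 0.102 to 0.183 CPM. *Myd88* itself did not check the genotype labels, since a count for a whole gene cannot tell reads of deleted exons from those of the rest. It stood at 32.1, 36.5, 28.7 and 25.4 CPM in ft/ft and at 38.8, 48.8, 32.2 and 44.9 CPM in ft/ftMyD88-/-. *Myd88* was called higher in ft/ftMyD88-/- (log2 fold change 0.42, adjusted p 0.0484 by edgeR), with overlapping groups. That call was lost in 7 of 15 alternative runs. Sex-linked transcripts separated the groups, since *Xist* averaged 49.4 CPM in ft/ftMyD88-/- with a total of 1 count over the ft/ft libraries, and the 4 Y-linked genes measured were called lower in ft/ftMyD88-/-. This conflicts with the design text, which gives female mice for both groups. Genotype and sex therefore cannot be told apart in any comparison below, and the group names are those of the labels throughout. In bulk skin, fewer cells of a type and less RNA per cell cannot be told apart either.

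Neutrophils are short-lived phagocytes made in the bone marrow, which enter skin from the blood where it is infected, injured or inflamed. *Csf3r* is the receptor of G-CSF, the cytokine that drives their production and survival, and *Fpr1* and *Fpr2* are G protein-coupled receptors for formylated bacterial peptides and host ligands that guide them to a site of damage. *Trem1* and *Trem3* are activating receptors of the immunoglobulin superfamily that signal through the adaptor DAP12, and *Clec4d* (MCL) and *Clec4e* (Mincle) are C-type lectin receptors for microbial glycolipids that signal through the Fc receptor gamma chain and *Syk*. None of the 7 is restricted to neutrophils, since monocytes, macrophages or dendritic cells can also make them, and PU.1 and the C/EBP factors are transcription factors known to drive many genes of the granulocyte and monocyte lineages.

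The promoters of 4 receptors are shown because these members carry the comparison: *Csf3r* as the gene with the most counts in ft/ft, *Trem1* as that with the largest fold change, and the neighbours *Clec4d* and *Clec4e* as the pair whose call held under every alternative. Each is 300 bases of RefSeq sequence, 250 before and 50 after the annotated transcription start, in build GRCm38.p6, 5′ to 3′ on the gene's own strand. The start used for *Csf3r* lies 1218 bases inside the outer bounds of the gene given below, and that for *Trem1* lies 26 bases inside them. Capitals mark a match to a PU.1 motif (GAGGAAG, or CTTCCTC on the other strand) or to a C/EBP motif (TTNNGCAA, or TTGCNNAA on the other strand).
*Csf3r*, chr4:126024409-126024708, plus strand: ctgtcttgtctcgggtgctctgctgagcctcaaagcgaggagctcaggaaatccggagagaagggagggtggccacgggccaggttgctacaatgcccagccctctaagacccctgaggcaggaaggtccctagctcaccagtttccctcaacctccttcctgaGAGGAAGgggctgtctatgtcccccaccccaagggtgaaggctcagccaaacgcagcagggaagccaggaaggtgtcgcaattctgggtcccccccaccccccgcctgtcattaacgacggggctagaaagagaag
*Trem1*, chr17:48232489-48232788, plus strand: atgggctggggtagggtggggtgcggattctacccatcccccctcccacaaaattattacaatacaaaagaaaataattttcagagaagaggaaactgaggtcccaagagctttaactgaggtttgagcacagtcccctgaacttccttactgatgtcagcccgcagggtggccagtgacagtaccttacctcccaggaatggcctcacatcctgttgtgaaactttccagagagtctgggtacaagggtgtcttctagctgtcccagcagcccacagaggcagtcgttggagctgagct
*Clec4d*, chr6:123261857-123262156, plus strand: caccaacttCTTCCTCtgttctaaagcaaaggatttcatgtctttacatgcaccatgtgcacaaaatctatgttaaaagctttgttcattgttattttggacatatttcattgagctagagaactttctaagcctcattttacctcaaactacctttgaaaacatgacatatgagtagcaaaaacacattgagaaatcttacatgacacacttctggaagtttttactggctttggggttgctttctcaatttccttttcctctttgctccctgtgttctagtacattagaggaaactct
*Clec4e*, chr6:123289822-123290121, minus strand: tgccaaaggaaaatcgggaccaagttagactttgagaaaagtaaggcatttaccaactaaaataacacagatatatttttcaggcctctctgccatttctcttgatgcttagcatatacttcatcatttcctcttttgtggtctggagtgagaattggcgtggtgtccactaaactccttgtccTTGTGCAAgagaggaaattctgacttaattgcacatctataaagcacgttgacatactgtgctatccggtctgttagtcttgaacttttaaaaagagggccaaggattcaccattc
The *Csf3r* window held the PU.1 letters from 86 bases before the start and the *Clec4d* window from 241 bases before it. The *Clec4e* window held the C/EBP letters from 66 bases before the start, and the *Trem1* window held neither. Over the 7 members with a window, the PU.1 letters were in 2 and the C/EBP letters in 2, the other C/EBP window being that of *Ngp*. Among 32851 promoter windows of the same length, 13.6% held the PU.1 letters and 10.8% the C/EBP letters. A match describes the letters and is not a site shown to be bound.

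All 7 receptors tested were called higher in ft/ftMyD88-/- than in ft/ft skin (edgeR quasi-likelihood test, Benjamini-Hochberg adjusted p under 0.05 over 20454 genes), where 23.3% of all genes tested were called, 10.9% higher and 12.3% lower. For 6 of them, every ft/ftMyD88-/- library stood above every ft/ft library, which held for 12.5% of all genes tested, the reverse holding for 14.2%. The exception was *Csf3r*. Of the 7, *Fpr1* and *Trem3* reached the count minimum through the ft/ftMyD88-/- libraries, having 4 and 9 counts in all 4 ft/ft libraries together, so a gene of their kind had to be higher there to be tested.

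**Figure D1:**
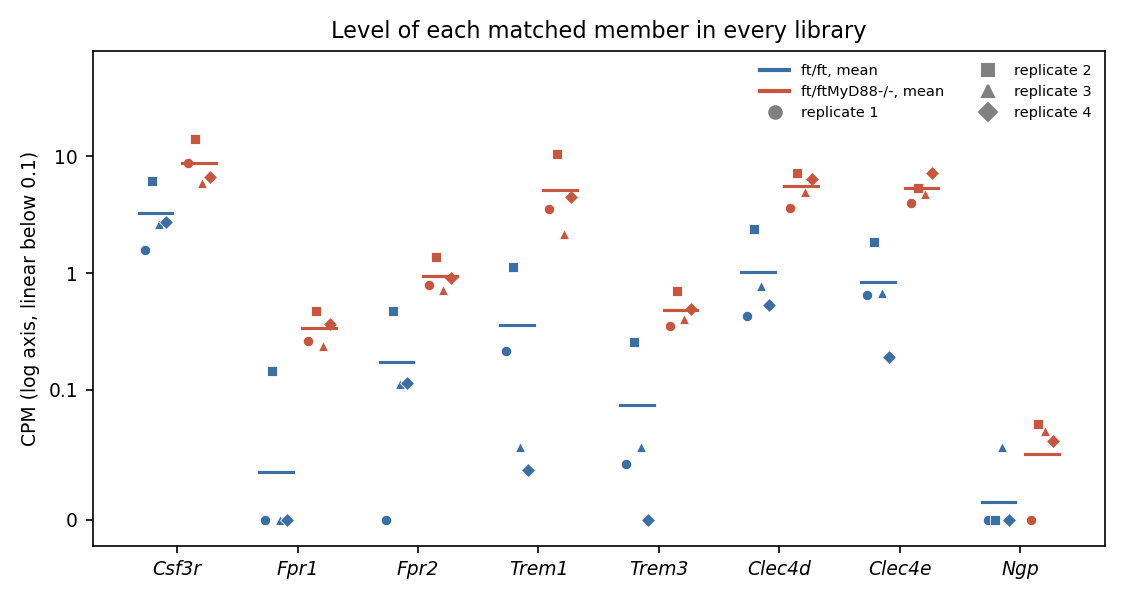
Level of the 8 matched genes in each library, in CPM on a log axis that is linear below 0.1, with ft/ft in blue, ft/ftMyD88-/- in red, a marker shape per replicate number and a bar at each group's mean of 4 libraries. The ft/ft square (replicate 2) is the highest ft/ft library for all 7 receptors, and the *Csf3r* point of ft/ft replicate 2, at 6.15 CPM, lies above the lowest ft/ftMyD88-/- library, at 5.95 CPM.

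*Csf3r* lies at chr4:126023441-126044975 on the plus strand. It stood at 1.59, 6.15, 2.62 and 2.76 CPM in ft/ft replicates 1 to 4 and at 8.68, 14.1, 5.95 and 6.59 CPM in ft/ftMyD88-/- replicates 1 to 4. The groups overlapped at 1 library on each side, ft/ft replicate 2 and ft/ftMyD88-/- replicate 3. The means were 3.28 ± 1.98 CPM (SD, n = 4) and 8.82 ± 3.69 CPM (SD, n = 4), with a log2 fold change of 1.42 (SE 0.434) and an adjusted p of 0.0476 by edgeR's quasi-likelihood test. A two-sided exact permutation test of the CPM gave p = 0.0571, where 0.0286 is the smallest that 4 against 4 libraries can give. This was the smallest fold change of the 7 and the call closest to the threshold.

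The formyl peptide receptors are neighbours on chromosome 17, *Fpr1* at chr17:17876471-17883939 on the minus strand and *Fpr2* at chr17:17887824-17893952 on the plus strand, 3884 bases apart. The ft/ft counts of *Fpr2* were 0, 13, 2 and 3, which is 0, 0.473, 0.112 and 0.115 CPM, against ft/ftMyD88-/- counts of 18, 37, 21 and 15, which is 0.789, 1.36, 0.714 and 0.915 CPM. The groups did not overlap, and 3 of the 4 ft/ft libraries were at or under the floor of 3 counts. Its log2 fold change was 2.32 (SE 0.598), with an adjusted p of 0.0159 by edgeR. For *Fpr1* the ft/ft counts were 0, 4, 0 and 0, against 6, 13, 7 and 6 in ft/ftMyD88-/-, or 0.238 to 0.478 CPM. Every ft/ft count of *Fpr1* came from replicate 2, and its log2 fold change of 2.87 (SE 0.825, adjusted p 0.0255 by edgeR) depends on the prior count used in the fit. The mouse formyl peptide receptors include several close copies, and how reads shared between them were counted was not given in the sources used here beyond default counting settings.

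*Trem1* and *Trem3* lie side by side on the plus strand, *Trem1* at chr17:48232713-48246927 and *Trem3* at chr17:48247677-48258848, 749 bases apart. *Trem1* amplifies inflammatory responses of neutrophils and monocytes. Its ft/ft counts were 5, 31, 1 and 1, against 80, 284, 63 and 73 in ft/ftMyD88-/-. In CPM these were 0.214, 1.13, 0.0558 and 0.0383 against 3.51, 10.4, 2.14 and 4.45. The groups did not overlap, and replicate 2 was the highest library in both. The means were 0.359 ± 0.518 CPM and 5.13 ± 3.66 CPM (SD, n = 4 each), with a log2 fold change of 3.72 (SE 0.91), the largest of the 7, and an adjusted p of 0.026 by edgeR. The *Trem3* levels were 0.0429, 0.255, 0.0558 and 0 CPM in ft/ft and 0.351, 0.698, 0.408 and 0.488 CPM in ft/ftMyD88-/-. Its groups did not overlap, and its log2 fold change was 2.32 (SE 0.66, adjusted p 0.0244 by edgeR).

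The C-type lectin receptors had the clearest differences. *Clec4d* lies at chr6:123262107-123275268 on the plus strand and *Clec4e* at chr6:123281789-123289871 on the minus strand, 6520 bases apart. *Clec4d* stood at 0.429, 2.36, 0.781 and 0.537 CPM in ft/ft and at 3.59, 7.20, 4.93 and 6.34 CPM in ft/ftMyD88-/-. *Clec4e* stood at 0.643, 1.85, 0.669 and 0.192 CPM in ft/ft and at 3.99, 5.37, 4.76 and 7.13 CPM in ft/ftMyD88-/-. For both genes the lowest ft/ftMyD88-/- library was above the highest ft/ft library, replicate 2. The log2 fold change was 2.38 (SE 0.491) for *Clec4d*, with an adjusted p of 0.00842, and 2.62 (SE 0.491) for *Clec4e*, with an adjusted p of 0.0052 (edgeR). For these and the other 4 receptors whose groups did not overlap, the two-sided exact permutation test gave p = 0.0286, the smallest it can give.

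Levels were set side by side between genes in CPM per kilobase of annotated exons. This assumes reads along the whole transcript, as the study describes, and the order would carry no meaning for the fixed-tissue protocol that the labels name. In ft/ftMyD88-/-, the order was *Clec4d* at 3.45 ± 0.993, *Csf3r* at 2.44 ± 1.02, *Trem1* at 1.71 ± 1.22, *Clec4e* at 1.07 ± 0.27, *Fpr2* at 0.729 ± 0.223, *Trem3* at 0.489 ± 0.153 and *Fpr1* at 0.254 ± 0.0826 CPM per kilobase (SD, n = 4 each). The ranges of the 4 libraries overlapped between every pair of neighbours in that order. In ft/ft, *Csf3r* came first at 0.908 ± 0.549 CPM per kilobase, ahead of *Clec4d* at 0.643 ± 0.565, and the other 5 means lay between 0.0275 and 0.169. *Csf3r* and *Clec4d* also overlapped in ft/ft, with ranges of 0.439 to 1.7 and 0.268 to 1.48 CPM per kilobase.

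Replicate 2 stood apart among the ft/ft libraries for these receptors. It held 52.0% of the ft/ft counts of *Csf3r*, 61.4% of those of *Clec4e*, 63.1% of *Clec4d*, 72.2% of *Fpr2*, 77.8% of *Trem3*, 81.6% of *Trem1* and all of *Fpr1*. Its level was 2.65 times the mean of the other 3 ft/ft libraries for *Csf3r*, 3.70 times for *Clec4e* and 4.06 times for *Clec4d*. The 7 receptors summed to 68, 340, 77 and 95 counts in ft/ft and to 483, 1078, 563 and 431 counts in ft/ftMyD88-/-, so replicate 2 lay between the other ft/ft libraries and every ft/ftMyD88-/- library. Of 11 neutrophil markers outside the 10 genes, 6 were highest in that ft/ft library and 5 in ft/ft replicate 1. Those highest in replicate 2 included *S100a8*, at 88.4 CPM against 1.53 to 8.96 CPM in the other 3, and *S100a9*, at 134 CPM against 2.91 to 13.5 CPM. Those highest in replicate 1 were *Il1r2*, *Mmp8*, *Camp*, *Stfa2* and *Stfa2l1*.

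Without ft/ft replicate 2, all 7 receptors were still called higher. Their differences were larger, which follows from leaving out the highest ft/ft library of all 7 and is no separate result. The ratio of mean CPM between ft/ftMyD88-/- and ft/ft rose from 2.69 to 3.80 for *Csf3r*, from 5.37 to 9.48 for *Clec4d* and from 6.33 to 10.6 for *Clec4e*. For *Trem1* the other 3 ft/ft libraries held 5, 1 and 1 counts, too few for a ratio to be given. These libraries had no more than 3 counts of *Fpr1*, *Fpr2* and *Trem3*. The ft/ftMyD88-/- means of these genes were 2.45, 6.89 and 3.55 times the mean 3-count floor of these libraries. The floor is the limit for a count of 0, and *Fpr2* and *Trem3* had counts above 0 there. For these 2 genes the multiples are therefore not lower bounds on the fold change. These ratios and multiples without ft/ft replicate 2 were added after the values had been seen. The groups then also stopped overlapping for *Csf3r*, since replicate 2 was the only ft/ft library in the overlap. The *Csf3r* level of the other ft/ft libraries reached 2.76 CPM, against a lowest ft/ftMyD88-/- library of 5.95 CPM.

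Leaving out any of several other libraries took calls away. Without ft/ft replicate 1, 3 or 4 the count of receptors called higher fell from 7 to 3, 3 and 2, and without ft/ftMyD88-/- replicate 1, 2 or 4 it fell to 6, 4 and 3, whereas it was 7 without ft/ftMyD88-/- replicate 3. *Csf3r* kept an adjusted p under the threshold in 2 of these 8 fits, without ft/ft replicate 2 (0.00439) and without ft/ftMyD88-/- replicate 3 (0.0422), and lay above it at up to 0.12 in the others. *Clec4d* and *Clec4e* were called in all 8, with adjusted p-values of at most 0.0309 and 0.0214 by edgeR. *Fpr2* lost its call in 1 fit, without ft/ft replicate 4 (0.0517). *Trem1* lost it without ft/ft replicate 1, 3 or 4 and without ft/ftMyD88-/- replicate 4, at up to 0.0716. *Fpr1* and *Trem3* lost it in the same fits as *Trem1* and also without ft/ftMyD88-/- replicate 2, at up to 0.0665 and 0.07. Every fold change stayed above 0, for *Csf3r* between 1.10 and 1.93 and for *Trem1* between 3.09 and 5.56 on the log2 scale.

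**Figure D2:**
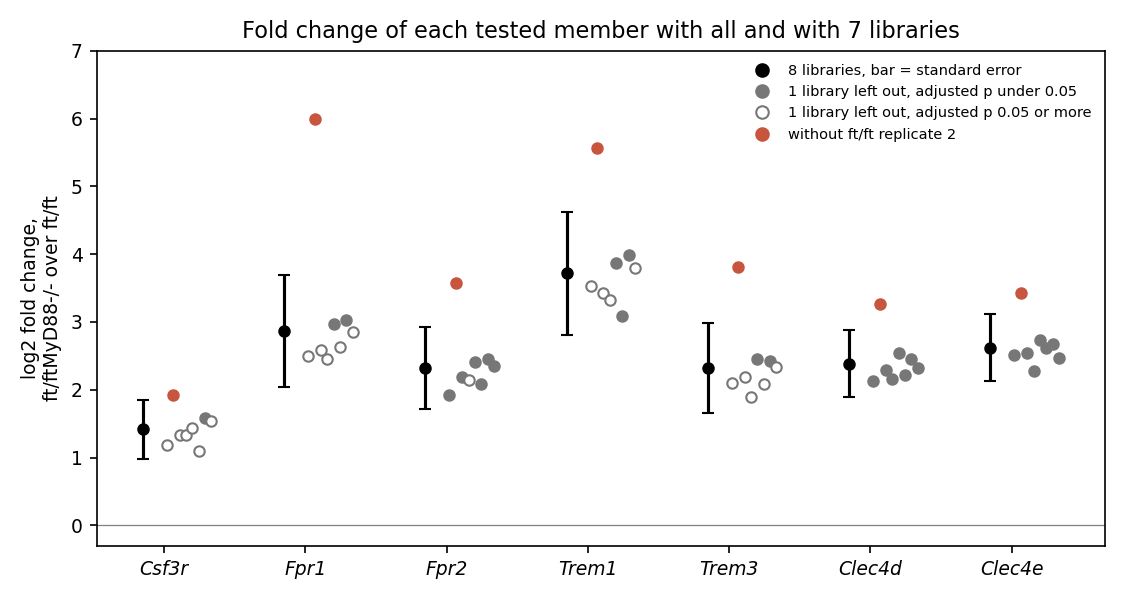
Log2 fold change of ft/ftMyD88-/- over ft/ft for the 7 receptors tested, with all 8 libraries (black, bar ± 1 standard error), with 1 library left out (grey, open where the adjusted p was 0.05 or more) and without ft/ft replicate 2 (red). Every point lies above 0. The red point, from leaving out the highest ft/ft library, is the highest for each gene, at 1.93 for *Csf3r* and 5.56 for *Trem1*. The red points of *Fpr1*, *Fpr2*, *Trem1* and *Trem3* are fitted against ft/ft libraries with at most 5 counts, depend on the prior count and are no bounds.

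The 7 receptors differed in the size of their fold changes, which can be shown as counts relative to *Csf3r* in the same library. *Csf3r*, which had the smallest fold change of the 7, was taken as the denominator after the values had been seen, so higher ratios in ft/ftMyD88-/- follow from that choice and are given without a test. Per 100 *Csf3r* counts, the *Trem1* counts were 13.5, 18.3, 2.13 and 1.39 for ft/ft, against 40.4, 74.2, 36.0 and 67.6 for ft/ftMyD88-/-. On the log2 scale with 0.5 added to each count, the group means of this ratio differed by 3.00 for *Trem1*, 1.71 for *Fpr1*, 1.48 for *Clec4e*, 1.47 for *Fpr2*, 1.24 for *Trem3* and 1.17 for *Clec4d*. The groups overlapped for *Trem3* and *Clec4e*, and the *Fpr1* ratio rests on the 0.5 added in 3 ft/ft libraries with 0 counts. Without ft/ft replicate 2 the differences were 3.51 for *Trem1*, 2.07 for *Fpr1*, 1.80 for *Fpr2*, 1.63 for *Clec4e*, 1.52 for *Trem3* and 1.32 for *Clec4d*.

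**Figure D3:**
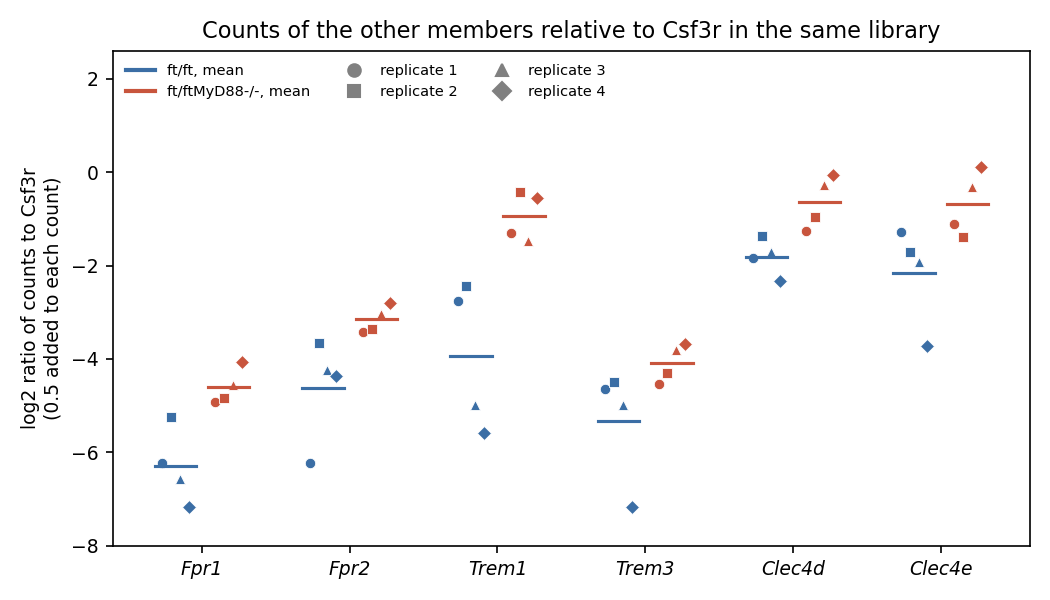
Counts of 6 receptors relative to *Csf3r* in the same library, as a log2 ratio with 0.5 added to each count, with ft/ft in blue, ft/ftMyD88-/- in red, a marker shape per replicate number and a bar at the mean of 4 libraries. The group means of *Trem1* are the farthest apart, by 3.00, and the groups overlap for *Trem3* and *Clec4e*.

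As a share of the counts summed over the 7 receptors, *Csf3r* made up 54.4%, 49.7%, 61.0% and 75.8% in ft/ft and 41.0%, 35.5%, 31.1% and 25.1% in ft/ftMyD88-/-. *Trem1* made up 7.35%, 9.12%, 1.30% and 1.05% in ft/ft and 16.6%, 26.3%, 11.2% and 16.9% in ft/ftMyD88-/-. Both shares separated the groups without overlap. The shares restate the ratios above and carry no test of their own.

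The difference was not shared evenly by the genes next to the receptors. In the Clec4 cluster of chromosome 6, *Clec4n* (Dectin-2), a receptor for fungal mannans that lies next to *Clec4d*, stood at 3.56, 5.93, 4.85 and 3.41 CPM in ft/ft and 8.33, 16, 10.3 and 18.8 CPM in ft/ftMyD88-/-, a log2 fold change of 1.59 (adjusted p 0.00303 by edgeR) with no overlap. The genes further along were close to 0 on the log2 scale, with fold changes of 0.20 for *Clec4a1*, 0.03 for *Clec4b1* and 0.21 for *Clec4a2* and adjusted p-values of 0.454, 0.953 and 0.423. *Clec4a3*, at 0.58, was called with an adjusted p of 0.0452, and the call was lost in 7 of the 8 fits that left out a library, at up to 0.114 without ft/ftMyD88-/- replicate 2. In the Trem cluster of chromosome 17, *Trem2*, a lipid receptor of macrophages, had a log2 fold change of 1.00 (adjusted p 0.00989 by edgeR). *Treml4* and *Treml2* had log2 fold changes of 1.46 and 1.24 that did not pass the test, with adjusted p-values of 0.118 and 0.0962. The *Treml4* counts were near the floor, at 1, 3, 0 and 3 in ft/ft and 6, 6, 5 and 3 in ft/ftMyD88-/-. With 7 ft/ft counts in all, *Treml4* reached the count minimum through the ft/ftMyD88-/- libraries. Its CPM did not overlap between the groups, whereas that of *Treml2* did. Of 26 listed relatives of the 10 genes, 16 were tested, of which 3 were called higher (*Trem2*, *Clec4a3* and *Clec4n*) and 1 lower (*Ly6e*, log2 fold change -1.06), with a median log2 fold change of 0.12 against 0.01 over all genes tested.

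**Figure D4:**
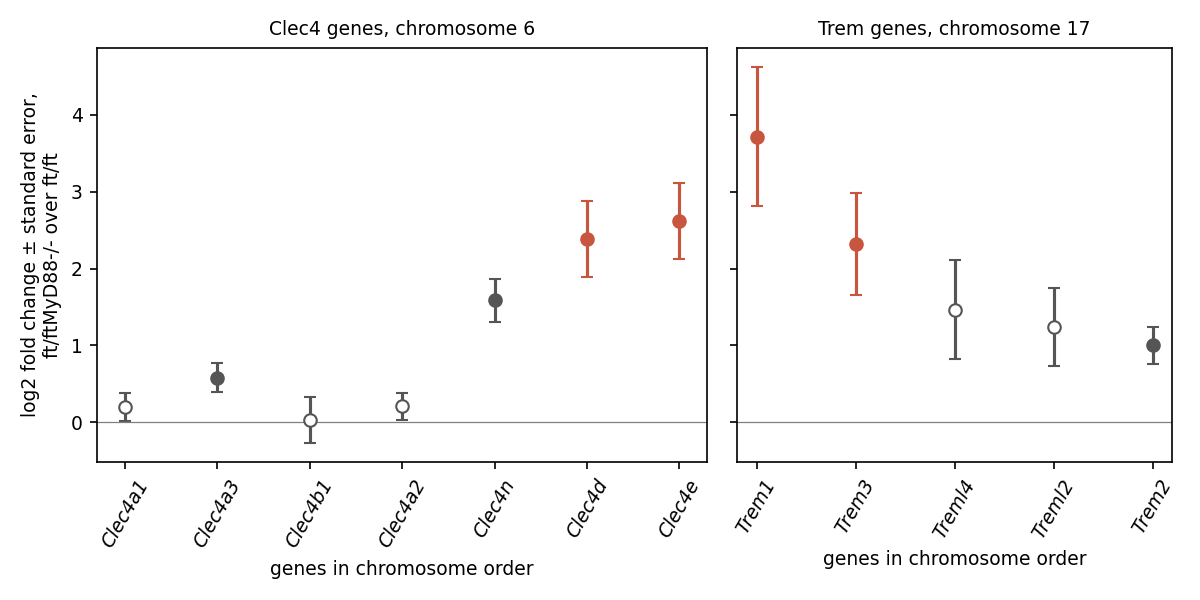
Log2 fold change ± standard error of ft/ftMyD88-/- over ft/ft for the Clec4 genes of chromosome 6 and the Trem genes of chromosome 17, evenly spaced in chromosome order, with the 4 listed receptors in red, their relatives in grey and open points where the adjusted p was 0.05 or more. *Clec4n*, *Clec4d* and *Clec4e* stand next to each other between 1.59 and 2.62, while *Clec4a1*, *Clec4b1* and *Clec4a2* lie between 0.03 and 0.21.

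Among 8 genes for ligands of these receptors, 2 were called higher and none lower, which is 25%. Over all genes tested, 23.3% were called in either direction. *Csf3*, which codes for G-CSF, was at 7, 20, 0 and 3 counts in ft/ft, against 34, 54, 5 and 15 in ft/ftMyD88-/-. The groups overlapped and the log2 fold change of 1.88 did not pass the test (adjusted p 0.144 by edgeR). *Saa3*, a serum amyloid A protein of a family that can act on *Fpr2*, stood at 0.514, 1.82, 0.892 and 0.23 CPM in ft/ft and 4.73, 65.4, 10.2 and 19.9 CPM in ft/ftMyD88-/-, without overlap. Its log2 fold change was 4.83 (adjusted p 0.0251), and the call was lost without ft/ft replicate 1, 3 or 4 and without ft/ftMyD88-/- replicate 4, at up to 0.0713, and in limma voom at 0.124. *Saa1* (1.90, adjusted p 0.0453) lost its call without any one of the 4 ft/ft libraries or without ft/ftMyD88-/- replicate 4, at up to 0.118, and in limma voom at 0.13. *Anxa1*, a host ligand of formyl peptide receptors, had a log2 fold change of 0.29, and *Sap130*, a nuclear protein that Mincle recognises on dead cells, one of 0.01, and neither was called. *Pglyrp1* had a log2 fold change of -0.45 and was not called either (adjusted p 0.385 by edgeR).

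Of 10 signalling partners, 3 were called higher and none lower, with a median log2 fold change of 0.25. *Tyrobp*, which codes for the adaptor DAP12 used by *Trem1* and *Trem3*, stood at 12.6, 15.1, 12.8 and 15.7 CPM in ft/ft and 16.3, 26.8, 24.3 and 27.3 CPM in ft/ftMyD88-/-. The groups did not overlap, and the log2 fold change was 0.75 (adjusted p 0.00524 by edgeR). The kinase *Syk* (0.49, adjusted p 0.0101) and *Socs3*, an inhibitor of G-CSF receptor signalling (0.55, adjusted p 0.0123), were also called. *Fcer1g*, the Fc receptor gamma chain, and *Card9*, which relays C-type lectin signals, had log2 fold changes of 0.50 and 0.29 that did not pass the test. The 3 calls held in every alternative run, and their fold changes were smaller than that of any of the 7 receptors.

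Granule genes of the precursor stages went both ways. Of 4 primary granule genes tested, *Ctsg* (cathepsin G) was called higher, from 0.0429, 0.182, 0 and 0.115 CPM in ft/ft to 0.57, 0.441, 0.306 and 0.488 CPM in ft/ftMyD88-/- (log2 fold change 2.20, adjusted p 0.0174 by edgeR). Its ft/ft counts were 1, 5, 0 and 3, or 9 in all, so *Ctsg* reached the count minimum through the ft/ftMyD88-/- libraries. *Mpo* (myeloperoxidase) was called lower, from 12.3, 18.5, 3.79 and 12.4 CPM to 0.657, 1.36, 3.40 and 1.16 CPM, with no overlap (log2 fold change -2.80, adjusted p 0.0195). The *Mpo* call was lost without ft/ftMyD88-/- replicate 2 (0.0535) and without replicate 4 of that group (0.0576). *Prtn3* (proteinase 3) was called lower at -0.97 with an adjusted p of 0.0367, and lost the call in 5 of the 8 fits that left out a library, at up to 0.132 without ft/ft replicate 4, and with library size only (0.0697). *Elane* had at most 4 counts in any library. Of 8 secondary and tertiary granule genes, *Lcn2* (lipocalin 2, also made by keratinocytes) was called higher at 1.93 (adjusted p 0.0431) and lost the call in 6 of those 8 fits, at up to 0.103 without ft/ft replicate 3. *Camp*, *Ltf*, *Mmp8* and the other 4 were not called.

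Other surface receptors of neutrophils were mixed. Of 15 listed and tested, 5 were called higher and 1 lower, with a median log2 fold change of 0.40. The Fc receptors *Fcgr4* (2.11, adjusted p 0.00892 by edgeR) and *Fcgr3* (0.99, adjusted p 0.00249) and the selectin ligand *Selplg* (0.60, adjusted p 0.0047) were among those higher. *Cd177* (2.31, adjusted p 0.0296) lost its call in 5 of the 8 fits that left out a library, at up to 0.0801 without ft/ft replicate 4, and in limma voom at 0.155. *Il1r2*, the decoy receptor of IL-1, was lower, at 66.8 ± 3.02 CPM in ft/ft and 37.9 ± 4.80 CPM in ft/ftMyD88-/- (SD, n = 4 each, log2 fold change -0.82, adjusted p 2.24e-04). The chemokine receptor *Cxcr2* (0.28, adjusted p 0.383) was not called.

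Lists of cell type markers were mixed, and are given beside the 23.3% of all genes tested that were called in either direction. Of 11 neutrophil markers outside the 10 genes, 2 were called higher (*Cd177* and *Stfa2*) and 1 lower (*Il1r2*), and 4 and 1 without ft/ft replicate 2. *Stfa2* lost its call without ft/ft replicate 3 or 4 and without ft/ftMyD88-/- replicate 1, at up to 0.0713. *S100a8* and *S100a9* had log2 fold changes of 3.22 and 3.22 with no overlap, and did not pass the test (adjusted p 0.126 and 0.123 by edgeR). The summed level of these 11 was 136 to 434 CPM in ft/ft, against 482 to 1132 CPM in ft/ftMyD88-/-. In ft/ftMyD88-/- the sum came mainly from *S100a9* (234 to 529 CPM), *S100a8* (145 to 405 CPM) and *Ltf* (34.7 to 363 CPM). The *Ltf* level was 36.3 to 112 CPM in ft/ft, so its groups overlapped, and it was not called. The sum thus follows a few genes, and the cells that made them were not tested. Of 8 macrophage markers, 2 were called higher, *C1qa* among them, with sums of 393 to 579 and 544 to 734 CPM, and the defining markers *Adgre1* and *Csf1r* had log2 fold changes of -0.03 and -0.21. Of 4 monocyte markers, *Ccr2* (0.74) and *Plac8* (1.16) were called higher, with sums of 94.2 to 128 and 126 to 159 CPM, and *F13a1* (-0.07) and *Ly6c2* (-0.13) were not called. All 4 skeletal muscle markers were called lower (median log2 fold change -1.06, sums of 6333 to 8625 and 2466 to 4554 CPM) and 2 of 4 keratinocyte markers, *Krt5* (-0.67) and *Krt10* (-0.58), were called lower (sums of 19930 to 26405 and 16678 to 20939 CPM), while *Krt14* (0.05) and *Krt1* (-0.10) were not called. The part of any of these cell types in the level of the receptors was not tested.

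The genes whose levels followed the receptors most closely were found by the root mean square difference between the log2 CPM of a gene and the mean of the 7 receptors, each centred on its own mean over the 8 libraries, among 14669 genes with a mean of at least 1 CPM. The nearest 5 were *Nlrp3*, a sensor protein of the inflammasome, at 0.303, *Lce3b*, a late cornified envelope gene, at 0.368, *Psg29* at 0.374, *Zc3h12a*, an endoribonuclease that degrades inflammatory mRNAs, at 0.415 and *Pla2g4d*, a phospholipase A2, at 0.419. The receptors themselves lay between 0.219 (*Clec4d*) and 0.964 (*Trem1*) from their own mean. *Nlrp3* stood at 0.3, 1.38, 0.279 and 0.268 CPM in ft/ft and 2.06, 3.45, 2.04 and 1.52 CPM in ft/ftMyD88-/-, again with replicate 2 highest in both groups. This is a description over 8 libraries that share the group difference.

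**Figure D5:**
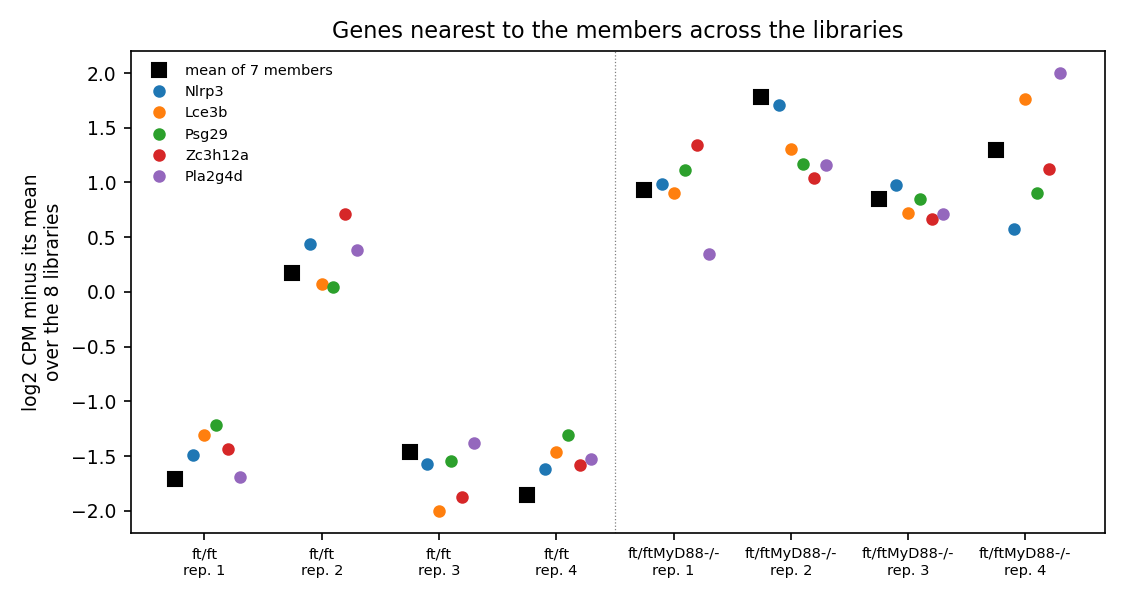
Log2 CPM minus the gene's own mean over the 8 libraries, for the mean of the 7 receptors (black squares) and the 5 genes nearest to it (coloured points), in each library. In every ft/ft library but replicate 2 all 6 values lie below -1, and in the 4 ft/ftMyD88-/- libraries all lie above 0, with the ft/ft replicate 2 values in between for most genes.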

How the data were processed

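RNA-seq was analysed in 8 libraries of mouse periocular skin, 4 ft/ft and 4 ft/ftMyD88-/-, grouped by their labels. The authors deposited read counts per gene. The study describes polyA selection, HISAT and TopHat2 alignment against GRCm38.p6 and default HTSeq counting, while the labels of these libraries name total RNA, a fixed-tissue protocol and Cell Ranger, so the processing is not settled, and tool versions and the strand setting were not given in the sources used here. polyA selection and strand-blind counting would change the level of genes with degraded or antisense transcripts. WT samples were not analysed here, and 0 columns were left unused.

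For the 20454 genes whose 8 libraries summed to 10 counts or more, the counts were fitted after TMM normalization by the robust quasi-likelihood model of edgeR 4.0.16 (R 4.3.3), without covariates, and compared two-sided with Benjamini-Hochberg adjustment at 0.05. The biological coefficient of variation was 0.182. Total counts of 15802957 to 29255129 put the 3-count floor at 0.102 to 0.183 CPM (floors cover counting error only). Coordinates and promoters came from RefSeq on GRCm38.p6, and exon lengths, as the union of all annotated exons, from GENCODE on the same assembly. Every pair of replicates within a group differed well beyond counting noise (lowest chi-square divided by its degrees of freedom, 15.1), so no library was a duplicate. Tested on simulated data for this comparison, with counts drawn for 20454 genes of which 20210 were tested, the fit called 200 of 200 genes changed by 2 on the log2 scale and 6 unchanged genes. The changed genes were drawn among those with a mean of at least 1 CPM, and all genes shared 1 dispersion. The simulation therefore does not cover *Fpr1*, *Fpr2* and *Trem3*, whose means were lower, or genes that vary more between libraries.

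The 10 genes and all gene lists were chosen with earlier results of these data known. The genes named are the 10, any gene of those lists, and the 5 genes nearest to the receptors across the libraries. Single values of some list genes are not reported here. The alternatives run were the test of DESeq2 1.42.0, scaling by RLE or by library size only, filterByExpr, no count filter, limma voom (limma 3.58.1), the replicate number as a block and each library left out in turn. Lists, ratios to *Csf3r* and ratios of mean CPM without ft/ft replicate 2 were added after seeing the data.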

Additional observations from a re-analysis of the deposited data

Results flagged for a closer look

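In 16 groups of 4 libraries (8 genes in 2 groups), 4 held a library far from the other 3 by Dixon's test. For independent groups of normal values the test flags about 1 of 20. These are mostly sparse counts from the same libraries, so that rate does not apply to them. A group with 0 in 3 libraries is flagged whatever count the other holds, as for *Fpr1* and *Ngp* in ft/ft. The level of *Fpr1* was 0.145 CPM in replicate 2 of ft/ft and 0 in the other 3 ft/ft libraries. The level of *Trem1* was 1.13 CPM in that replicate and between 0.0383 and 0.214 CPM in the others. Both are the library that was highest in ft/ft for all 7 receptors. The level of *Ngp* was 0.0558 CPM, a single count, in replicate 3 of ft/ft and at 0 in the other 3, and at 0 CPM in ft/ftMyD88-/- replicate 1 against 0.061 to 0.0735 CPM, 1 or 2 counts, in the others of its group, so both *Ngp* values lie within counting error.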

How the results depend on the processing

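All 7 receptors kept a positive fold change under every alternative in which they were tested. The number called higher was 7 with DESeq2, RLE normalization, library size only, limma voom and the replicate block, 6 with no count filter (*Csf3r* at an adjusted p of 0.0526), 5 with filterByExpr, which did not test *Fpr1* and *Trem3*, and 2 to 7 with each library left out. Receptors without overlap numbered 6, against 7 with library size only, 4 with filterByExpr and 6 to 7 with each library left out. Over all genes, 2239 were called higher and 2525 lower. With library size only, the split was 4638 and 1326, where TMM had factors of 0.922 to 0.954 for ft/ft and 1.04 to 1.09 for ft/ftMyD88-/-. DESeq2 called 5622 genes in all against 4764. With each library left out, 3346 to 4668 genes were called, 1464 to 2260 of them higher and 1851 to 2408 lower, in fits with fewer samples. Neutrophil markers outside the 10 genes called numbered 3, 5 with DESeq2, 5 with library size only and 1 to 5 with each library left out. The labels give both groups replicate numbers 1 to 4 but do not say that a number marks a shared litter or day, and the deviations of same-numbered libraries correlated at -0.146, 0.0251, 0.0146 and -0.0169, so they were not treated as pairs. With the replicate block, 4039 genes, 7 receptors and 3 neutrophil markers were called, and *Mpo*, *Prtn3* and *Lcn2* were not (adjusted p 0.137, 0.0678 and 0.0517). The cause of these changes was not tested. Depth limits *Fpr1*, *Fpr2*, *Trem3* and *Ngp*, whose ft/ft libraries mostly lay at or under 3 counts.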

Other observations

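Genes of the phagocyte NADPH oxidase, which makes the oxidative burst of neutrophils and macrophages, were partly higher in ft/ftMyD88-/- skin. Of 6 tested, 3 were called higher and none lower, *Ncf4* (log2 fold change 0.91, adjusted p 0.00193 by edgeR), *Cyba* (0.69, adjusted p 0.00215) and *Rac2* (0.55, adjusted p 0.0154, lost without ft/ft replicate 4 at 0.053). *Cybb*, the catalytic subunit, had a log2 fold change of -0.03. Of 6 transcription factors of granulocytes, *Cebpb* was called higher (0.48, adjusted p 0.00447 by edgeR), and the other 5 were not called.

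Among other leukocyte and blood markers, 1 of 3 eosinophil markers tested was called higher, the receptor *Siglecf* (1.32). *Ccr3* (0.38) and *Prg2* (-0.15) were not called. The summed level of the 3 was 1.51 to 2.14 CPM in ft/ft and 2.37 to 4.09 CPM in ft/ftMyD88-/-. Of 4 dendritic cell markers 2 were called higher, and 1 without ft/ft replicate 2. None of 5 mast cell and 4 platelet markers was called. Of 5 red cell markers 2 were called lower, and 4 without ft/ft replicate 2, with sums of 86.6 to 637 CPM in ft/ft and 65.0 to 129 CPM in ft/ftMyD88-/-.

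A row spelled Retnig has no RefSeq symbol of that spelling and was not assigned to any of the 10 genes. It was singled out after its values were seen, with counts of 13, 16, 9 and 3 for ft/ft, against 13, 17, 36 and 21 for ft/ftMyD88-/-, a log2 fold change of 1.06 (SE 0.449) that did not pass the test (adjusted p 0.106 by edgeR).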
